A study of Mus musculus with 19 samples.

Results

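The comparison described here was between the livers of wild-type female mice fed a synthetic diet high in cholesterol and those of wild-type female mice fed the same kind of diet low in cholesterol. Its members were the 10 libraries that the sample titles label wild type, 5 on high and 5 on low cholesterol, of 19 libraries in the series, and the other 9 came from Gramd1c knockout mice (Gramd1c-/-, a knockout-first allele), 4 on low and 5 on high cholesterol. All genes of the deposited tables entered the comparison. The study asked what the loss of Aster-C, the sterol transfer protein encoded by Gramd1c, does to sterol metabolism. The wild-type mice were littermates (Gramd1c+/+) from crosses of heterozygous animals on a C57BL/6N-Atm1Brd background. They ate chow until 8 weeks of age and then a diet with 0.02% or 0.2% cholesterol by weight for 4 weeks. Liver RNA was taken after saline perfusion, and the methods state that most mice, not all, had been fasted before necropsy. Each library came from 1 mouse.

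Liver cells hold their cholesterol within narrow limits with opposed transcription programmes. When membrane sterol is scarce, SCAP escorts SREBP2 from the endoplasmic reticulum to the Golgi, where proteases release the fragment that switches on the genes of cholesterol synthesis and of lipoprotein uptake, and when sterol is plentiful the INSIG proteins hold the complex back. Oxysterols, which form as cholesterol accumulates, instead bind the nuclear receptor LXR, whose targets include the canalicular sterol pump made of ABCG5 and ABCG8, and part of the cholesterol leaves the hepatocyte as bile acids.

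Total counts of the wild-type libraries were 28493865 to 34669648 per mouse. The tissue field of the labels names gonadal adipose tissue, whereas albumin (Alb), a hepatocyte product, took 5.25 to 9.17% of the counts and adiponectin (Adipoq), an adipocyte product, had 0 to 4 counts in 9 wild-type mice. The remaining mouse, low cholesterol replicate 2, had 177 Adipoq counts and stood apart. Its 9 adrenal cortex markers summed to 628.5 TPM (transcripts scaled to a fixed total per library and to gene length), against 2.80 to 4.66 TPM in the other 9 mice, and results that rest on it are given with and without it. Gramd1c itself was at 10.4 to 16.0 TPM on low and 9.56 to 11.7 TPM on high cholesterol (adjusted p = 0.887, edgeR). Gramd1a and Gramd1b encode the related Aster-A and Aster-B (adjusted p = 0.902 and 0.727, edgeR). None of these genes differed by more than the spread between mice. For Gramd1b that spread came mainly from low cholesterol mouse 2, whose level was 3.47 TPM. No other wild-type mouse exceeded 1.05 TPM of Gramd1b. A Gramd1b fit without mouse 2 is not given here, so its diet effect is left undecided.

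Few genes were called between the diets, and most of those called were lower on high cholesterol. Of 15016 genes with enough counts to be tested, 51 were lower (0.340%) and 15 were higher (0.0999%) on high cholesterol, by the quasi-likelihood test of edgeR at a Benjamini-Hochberg adjusted p below 0.05, which together made 66 genes or 0.44%. At an unadjusted p below 0.05 (edgeR) the numbers were 599 lower and 592 higher. These made 1191 genes, where chance alone gives about 751, and they showed no lean downward. The median log2 fold change over all genes tested was 0.01, which TMM library scaling places near zero. The number of higher genes depended on single mice, being 2, 4, 5, 8 and 10 without low cholesterol mice 1 to 5 and 5, 4, 6, 6 and 16 without high cholesterol mice 1 to 5 (37 to 55 for lower genes). Of the 51 lower genes, 38 differed by at least 2-fold and 17 by at least 4-fold, and of the 15 higher genes 10 and 3 did. The TPM values of the 2 groups did not overlap for 49 of the 51 and 13 of the 15, and over all genes tested they did not overlap for 1.03% (lower) and 0.693% (higher). The genes called lower covered a wide range of levels, as the plot of all genes shows.

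**Figure D1:**
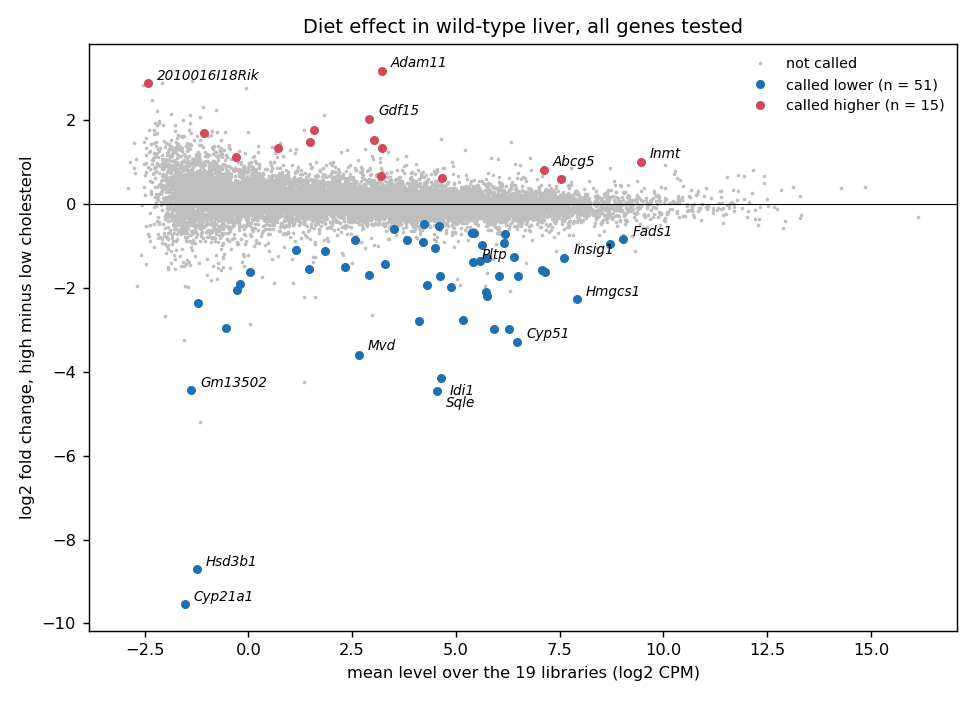
Diet effect in wild-type liver (log2 fold change, high minus low cholesterol) against the mean level (log2 CPM), with each point a gene tested. The mean level is over the 10 wild-type libraries, although the printed axis label names 19. Blue points are the 51 genes called lower and red points the 15 called higher, with Sqle, Idi1 and Mvd far below zero at middling levels and Adam11 highest among the called genes; Hsd3b1 and Cyp21a1 at the bottom rest on 1 mouse.

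Enzymes of cholesterol synthesis made up 18 of the 51 lower genes. Of the 20 enzymes listed from acetyl-CoA to cholesterol, all of them measured, 18 were called lower and 0 higher, and the median log2 fold change was -1.96. Their summed level was 2282, 2914, 2919, 2487 and 2092 TPM in low cholesterol mice 1 to 5, and 808, 857, 859, 1118 and 816 TPM in high cholesterol mice 1 to 5. The groups lay far apart, and the mean on low cholesterol was 2.85 times that on high cholesterol. The mice of a group did not keep 1 order across enzymes, although low cholesterol mice 2 and 3 were the highest of their group for 9 and 8 of the 20 enzymes and high cholesterol mouse 4 was the highest of its group for 10.

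The deepest falls were at squalene epoxidase and at the steps that make and isomerise isopentenyl diphosphate. Sqle, which encodes squalene epoxidase and lies on chromosome 15 of GRCm38 from 59315077 to 59331192 (plus strand), was at 43.4, 51.8, 57.6, 43.9 and 25.5 TPM in the 5 low cholesterol mice and at 1.62, 2.22, 1.93, 2.03 and 1.92 TPM in the 5 high cholesterol mice. The high cholesterol livers were nearly alike and all lay far below the lowest low cholesterol liver. The log2 fold change was -4.46 (standard error 0.22, edgeR adjusted p = 7.63e-11), which left 4.54% of the level. Idi1, the isopentenyl diphosphate isomerase (chromosome 13, 8885501 to 8892451, plus strand), went from 40.0 to 93.6 TPM on low cholesterol to 2.09 to 5.73 TPM on high cholesterol, a log2 fold change of -4.16. Mvd, the mevalonate diphosphate decarboxylase just before it, fell from 27.3 ± 10.3 to 2.12 ± 0.419 TPM (SD, n = 5 each), a log2 fold change of -3.60. These 3 enzymes fell 22.0-, 17.9- and 12.2-fold.

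The steps on either side fell less. Hmgcs1, the HMG-CoA synthase of the cytosol, was the most abundant of the early enzymes, at 309, 530, 451, 431 and 183 TPM on low and 53.4, 70.4, 75.4, 87.2 and 93.4 TPM on high cholesterol. The groups did not overlap although the low cholesterol mice ranged widely (log2 fold change -2.27, standard error 0.22, adjusted p = 3.23e-06, edgeR). Mvk and Pmvk, the 2 kinases of mevalonate, fell by 1.93 and 1.72 on the log2 scale, and Acat2, the thiolase that opens the pathway, by 0.99. Fdps, which makes farnesyl diphosphate, fell by 2.99, and Fdft1, the squalene synthase, by 1.71.

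Downstream of squalene the enzymes that close and trim the sterol ring fell to differing degrees. Cyp51, the lanosterol 14-demethylase (chromosome 5, 4081145 to 4104746, minus strand), had the smallest p of all genes, with 127, 169, 164, 149 and 103 TPM on low cholesterol and 13.4, 12.9, 14.8, 14.9 and 14.0 TPM on high cholesterol. The log2 fold change was -3.29 (standard error 0.16, adjusted p = 7.63e-11, edgeR), and the mice on high cholesterol spanned less than 2 TPM. Msmo1 and Nsdhl, which act in the removal of the methyl groups at carbon 4, fell by 2.98 and 2.77 on the log2 scale, Dhcr7 by 2.20, Lss, the cyclase of squalene epoxide, by 1.99, Hsd17b7 by 1.72 and Tm7sf2 by 1.57. Sc5d, the lathosterol oxidase, fell by 0.95. Ebp, the sterol isomerase and one of the most abundant enzymes, was at 264 ± 20.2 and 208 ± 35.8 TPM (log2 fold change -0.28, adjusted p = 0.671, edgeR), and was not called, with groups that overlapped.

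**Figure D2:**
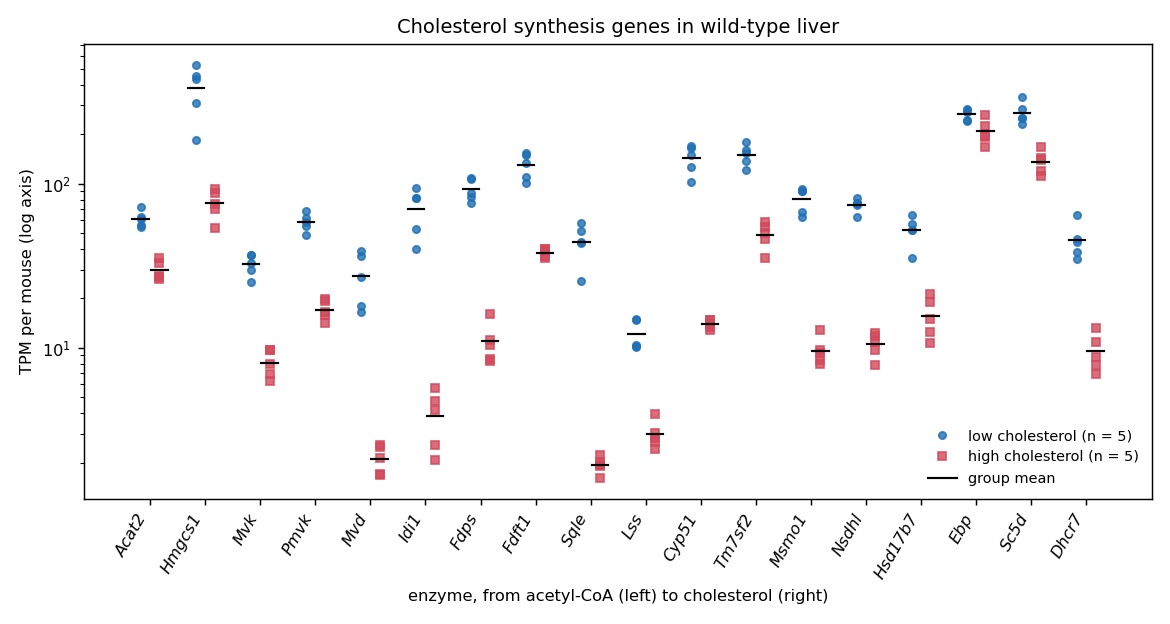
TPM in each of the 10 wild-type mice (log axis) for 18 of the 20 enzymes of cholesterol synthesis, in pathway order from left to right, with circles for low and squares for high cholesterol and bars for the group means. The gap between the groups is widest at Mvd, Idi1 and Sqle and narrowest at Ebp, where the groups overlap.

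Sequence upstream of some of these genes is shown because SREBP2 acts through sites close to the start of transcription, often beside binding sites of the factor NF-Y. RefSeq promoter entries on GRCm38.p6 were matched by symbol for 38 of the 51 lower and 12 of the 15 higher genes, and the 250 bases before each start were searched on both strands for TCACNCCAC, a form of the sterol regulatory element, and for CCAAT, the core of NF-Y sites. The capitals below mark these 2 motifs on either strand, and the sequences run 5′ to 3′ on the strand of the gene up to the base before the start. They are Hmgcs1 (chr13:119690101-119690350, plus strand), Aldoc (chr11:78322823-78323072, plus strand), Idi1 (chr13:8885356-8885605, plus strand), Mvd (chr8:122443423-122443672, minus strand), Cyp51 (chr5:4104698-4104947, minus strand) and, as a gene that rose, Abcg5 (chr17:84683012-84683261, minus strand).
Hmgcs1: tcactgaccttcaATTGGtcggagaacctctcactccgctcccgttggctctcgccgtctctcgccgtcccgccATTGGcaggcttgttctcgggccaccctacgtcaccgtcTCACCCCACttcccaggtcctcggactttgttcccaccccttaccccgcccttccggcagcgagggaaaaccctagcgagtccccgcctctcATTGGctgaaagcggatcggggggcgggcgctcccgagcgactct
Aldoc: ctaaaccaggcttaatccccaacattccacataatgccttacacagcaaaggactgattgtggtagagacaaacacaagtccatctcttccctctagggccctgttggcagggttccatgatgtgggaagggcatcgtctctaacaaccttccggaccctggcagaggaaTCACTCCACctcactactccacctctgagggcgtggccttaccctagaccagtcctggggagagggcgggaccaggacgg
Idi1: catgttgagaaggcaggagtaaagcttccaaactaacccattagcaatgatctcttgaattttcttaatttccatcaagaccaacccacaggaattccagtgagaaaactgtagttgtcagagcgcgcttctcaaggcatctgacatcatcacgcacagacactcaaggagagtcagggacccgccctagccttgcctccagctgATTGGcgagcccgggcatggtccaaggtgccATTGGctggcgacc
Mvd: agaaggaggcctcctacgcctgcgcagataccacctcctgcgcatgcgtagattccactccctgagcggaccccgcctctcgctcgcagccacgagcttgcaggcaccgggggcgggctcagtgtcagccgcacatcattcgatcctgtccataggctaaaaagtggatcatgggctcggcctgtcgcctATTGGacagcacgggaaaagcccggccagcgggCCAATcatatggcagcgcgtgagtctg
Cyp51: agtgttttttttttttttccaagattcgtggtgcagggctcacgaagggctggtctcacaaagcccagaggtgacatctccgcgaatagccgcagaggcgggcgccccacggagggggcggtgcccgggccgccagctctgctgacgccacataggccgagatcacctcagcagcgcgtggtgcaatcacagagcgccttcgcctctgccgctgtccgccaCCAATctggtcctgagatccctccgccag
Abcg5: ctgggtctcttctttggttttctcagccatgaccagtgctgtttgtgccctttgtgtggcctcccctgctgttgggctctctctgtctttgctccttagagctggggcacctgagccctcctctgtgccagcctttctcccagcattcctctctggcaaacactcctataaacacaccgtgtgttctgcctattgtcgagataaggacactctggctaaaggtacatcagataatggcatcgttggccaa

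The Hmgcs1 window held TCACNCCAC, starting 137 bases before the start, and 3 CCAAT motifs. Aldoc, which has 2 RefSeq starts, held TCACNCCAC 80 bases before the start shown and no CCAAT. These were the only lower genes with TCACNCCAC, which is in 1.05% of the 32851 promoter entries. In Idi1, Mvd and Cyp51 the windows held 2, 2 and 1 CCAAT motifs, all within 60 bases of the start, and the Abcg5 window held neither motif. CCAAT was in 30 of the 46 entries of the lower genes (65.2%) and in 3 of the 16 entries of the higher genes (18.8%), against 33.8% of all entries and 35% of the entries of genes tested. CACGTG, the E-box, was in 6 of the 46 and 4 of the 16, against 6.02% of all entries. None of these motifs is part of another. These are matches of letters in the window searched, and no binding was measured.

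Targets of SREBP2 outside the pathway fell with the enzymes. Of 9 such genes, 7 were called lower and 0 higher, with a median log2 fold change of -1.27. Rdh11, a retinol dehydrogenase, fell by 2.10 on the log2 scale (edgeR). Srebf2, which encodes SREBP2 itself, was at 46.2, 39.5, 51.7, 28.6 and 25.6 TPM on low and at 11.0, 13.1, 13.3, 22.4 and 17.9 TPM on high cholesterol, with the lowest low cholesterol mouse only a little above the highest high cholesterol mouse (log2 fold change -1.29, adjusted p = 0.0045, edgeR). Insig1, which retains the SCAP complex, fell by 1.28, Stard4, a soluble sterol carrier, by 1.27, Mmab, a cobalamin adenosyltransferase, by 0.91, and Tmem97, the sigma-2 receptor, by 0.72.

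Aacs, the acetoacetyl-CoA synthetase, ranged from 4.32 to 38.3 TPM within the high cholesterol group alone and was not called (log2 fold change -0.16, adjusted p = 0.918). Of 9 genes that process SREBP or sense sterol, 1 was called, Rnf145, and it was higher. Scap, Insig2 and Srebf1, which encodes SREBP1, had log2 fold changes of -0.48, -0.42 and 0.53 and adjusted p of 0.358, 0.663 and 0.499 (edgeR).

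Several lower genes match an enzyme gene in sequence or lie on or near one. Gm13502 on chromosome 2, annotated as a processed pseudogene of 684 bases, is identical to the Idi1 transcript over 100% of its length, and Gm3571 on chromosome 10 matches Fdps at 98.9% identity over its whole length. They fell by 4.44 and 2.96 on the log2 scale, close to the 4.16 and 2.99 of Idi1 and Fdps, and at 4.46 and 3.74 TPM on low cholesterol they held a small part of the level of their counterparts. Reads of the parent gene could have been counted there, so these calls are uncertain as genes in their own right. In the other direction Acat2 matches Acat3 at 97.7% identity over 1477 bases, and Acat3 had a log2 fold change of -0.01.

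Mmab and Mvk start 209 bases apart on opposite strands and fell by 0.91 and 1.93 on the log2 scale. The antisense RNA 3110045C21Rik starts 168 bases from Hsd17b7, also on the opposite strand, and was at 2.04, 4.81, 2.03, 5.74 and 2.05 TPM on low against 0.376 to 1.12 TPM on high cholesterol (log2 fold change -1.92, adjusted p = 0.0143, edgeR). The lincRNA Gm36435 starts 15622 bases from Sc5d and fell by 1.63. Gm11437 lies inside Acaca on the opposite strand and fell by 1.12, while Acaca, the acetyl-CoA carboxylase, had a log2 fold change of -0.44 (adjusted p = 0.686, edgeR). The library kit did not mark strand, so reads of Gm11437 and Acaca cannot be told apart. The other pairs named here do not overlap by their annotated positions.

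A further group of lower genes handles fatty acids, ceramide and membranes. Acss2, the acetyl-CoA synthetase that supplies carbon to both fatty acid and sterol synthesis, was at 69.4, 39.1, 67.2, 28.9 and 74.1 TPM on low and 15.5, 16.3, 14.9, 21.6 and 20.9 TPM on high cholesterol. The low cholesterol mice fell into a higher and a lower set, and each was above all mice on high cholesterol (log2 fold change -1.64, standard error 0.25, adjusted p = 0.00114, edgeR). Acsl3 and Acsl4, long-chain acyl-CoA synthetases, fell by 1.06 and 0.70 on the log2 scale, and Fads1, the delta-5 desaturase of polyunsaturated fatty acids, by 0.85. Asah1, the acid ceramidase of lysosomes, went from 30.2 to 40.1 TPM on low cholesterol to 17.1 to 24.4 TPM on high cholesterol (log2 fold change -0.70, adjusted p = 0.00641, edgeR). Erg28, a scaffold protein of sterol synthesis in the endoplasmic reticulum, fell by 0.92, Lbr, the lamin B receptor, which is also a sterol reductase, by 0.61, and Tmem41b, a lipid scramblase of the endoplasmic reticulum, by 0.49, the smallest change that was called.

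Lower genes outside lipid metabolism included an enzyme of glycolysis and a transcription factor. Aldoc, the aldolase C isoform, was at 10.3, 8.42, 10.1, 7.48 and 9.41 TPM on low cholesterol and at 2.82, 2.60, 2.87, 2.52 and 2.80 TPM on high cholesterol. Neither group varied much, and Aldoc ranked among the 15 lower genes of smallest p (log2 fold change -1.70, standard error 0.18, adjusted p = 8.76e-06, edgeR). Mycn, a transcription factor of the MYC family, was low throughout, at 1.02, 1.82, 0.789, 1.29 and 0.603 TPM on low and 0.115, 0.259, 0.242, 0.395 and 0.250 TPM on high cholesterol (log2 fold change -2.05, adjusted p = 0.0107, edgeR). Sytl5, a synaptotagmin-like protein, fell by 2.37, Sgsm1, a regulator of small GTPases, by 1.54, and Fmn1, a formin that nucleates actin, by 1.51. Among the other lower genes, Tmco6, Mrps27, Kctd7 and Arsg had log2 fold changes of -0.86, -0.52, -1.10 and -0.85, and the groups overlapped for Kctd7 and Arsg.

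Hsd3b1 and Cyp21a1, which make steroid hormones in the adrenal cortex, were also called lower, at log2 fold changes of -8.71 and -9.54. Both calls rest on low cholesterol mouse 2, which held 198 TPM of Hsd3b1 and 191 TPM of Cyp21a1, while the other 4 low cholesterol mice had at most 0.80 and 0.479 TPM. Without that mouse their adjusted p rose to 0.416 and 0.537 (edgeR). The same library held Star, the adrenal cholesterol carrier, at 84.0 TPM and the adipocyte product Cfd at 108 TPM, against at most 1.14 and 0.892 TPM in the other 4 mice of its group. The sterol genes did not rest on it, since 18 of the 20 enzymes were called lower with any single wild-type mouse left out.

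Among the 15 higher genes the largest change was in Adam11. It encodes a member of the ADAM family without protease activity, known from neurons, and lies on chromosome 11 from 102761439 to 102780262 (plus strand). Adam11 was at 1.56, 0.703, 1.87, 0.736 and 1.39 TPM on low cholesterol and at 9.15, 12.4, 5.89, 18.1 and 11.7 TPM on high cholesterol. The lowest high cholesterol mouse stood well above the highest low cholesterol mouse, and the gene rose 9.02-fold (log2 fold change 3.17, standard error 0.39, adjusted p = 7.41e-05, edgeR). Spsb4, an adaptor of a ubiquitin ligase, was at 0.901, 1.14, 0.497, 0.852 and 0.870 TPM and at 2.29, 1.54, 2.76, 3.22 and 1.52 TPM, again with no overlap (log2 fold change 1.47, adjusted p = 0.00817, edgeR). Adam11 and Spsb4 were the only higher genes called with each of the 10 wild-type mice left out in turn.

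Gdf15, a circulating hormone of the TGF-beta family released under cell stress, was at 5.74, 10.9, 1.96, 2.87 and 4.03 TPM on low and 15.2, 30.02, 18.7, 11.4 and 19.9 TPM on high cholesterol. The highest low cholesterol mouse, replicate 2, came close to the lowest high cholesterol mouse, and the log2 fold change was 2.02 (standard error 0.43, adjusted p = 0.035, edgeR). The other 14 genes of the integrated stress response on its list were not called. Tpm2, the beta tropomyosin, rose from 3.81 to 5.64 TPM on low cholesterol to 7.68 to 15.5 TPM on high cholesterol (log2 fold change 1.33). Inmt, a methyltransferase of indole amines and the most abundant of the higher genes, went from 704 ± 200 to 1370 ± 228 TPM (SD, n = 5 each), a log2 fold change of 0.999. Rab20, a small GTPase of endosomes, rose by 0.67 on the log2 scale and Cyp4f15, a fatty acid hydroxylase, by 0.59.

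Another 6 of the higher genes are poorly characterised transcripts. 9130409I23Rik rose by 1.53 on the log2 scale, from 3.48 to 9.48 TPM on low cholesterol to 10.9 to 20.8 TPM on high cholesterol. The lincRNA 1700080G11Rik rose by 1.75 and, at 3.91 to 11.7 against 23.0 to 32.5 TPM, had a wide gap between the groups. 9130409I23Rik shares 647 bases with Gm17967, annotated as a processed pseudogene on the opposite strand. The remaining 4 also overlap other genes. Gm49759 lies within Pkm on the same strand. On the opposite strand, Gm35986 and 1700092C10Rik share 34 and 56 bases with Elovl6 and Nkx2-6, and 2010016I18Rik shares 3509 with Dennd2d. The log2 fold changes of these 4, in the order named, were 1.13, 1.32, 1.68 and 2.88, all at mean levels under 8 TPM. Reads from the overlapping partners could not be separated. The largest of these changes rests on few reads, as 2010016I18Rik had 0 to 3 counts per mouse on low and 5 to 15 on high cholesterol. 1700092C10Rik had 5 to 11 and 13 to 40 counts, and Gm49759 averaged 0.295 and 0.616 TPM.

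**Figure D3:**
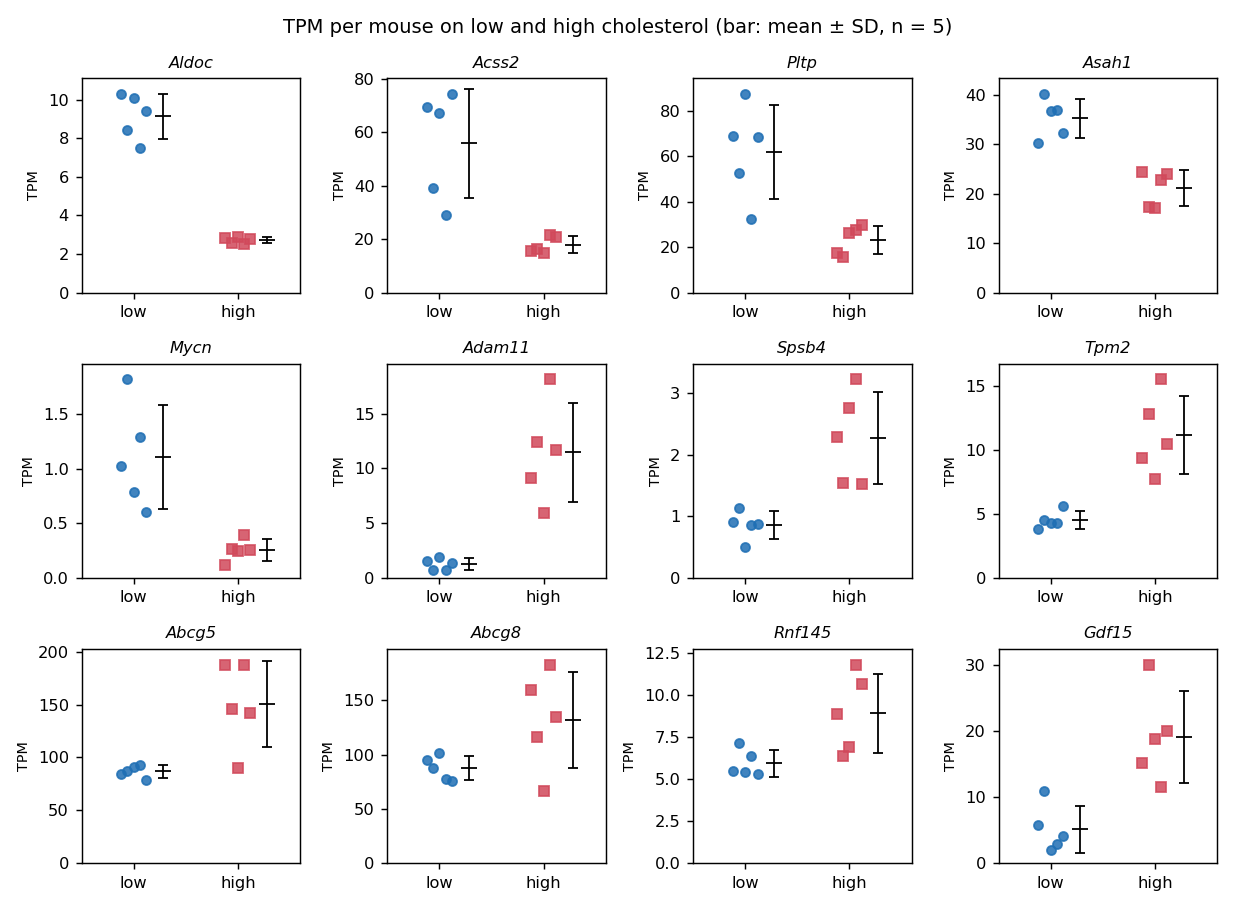
TPM in each wild-type mouse for 5 genes called lower (Aldoc, Acss2, Pltp, Asah1, Mycn), 6 called higher (Adam11, Spsb4, Tpm2, Abcg5, Rnf145, Gdf15) and Abcg8, which was not called, with circles for low and squares for high cholesterol and bars for the mean and SD of 5 mice. The groups are apart in every panel except Abcg5, Abcg8 and Rnf145, where the lowest mice on high cholesterol lie among those on low cholesterol or, for Abcg8, below them.

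Of the genes of LXR and sterol export, 13 in number, 1 was called higher and 1 lower, and the median log2 fold change was 0.18. Abcg5, a subunit of the sterol pump (chromosome 17, 84658234 to 84683011, minus strand), was at 84.3, 86.8, 91.4, 92.9 and 78.3 TPM on low and 188, 146, 89.9, 188 and 142 TPM on high cholesterol. High cholesterol mouse 3 stayed at the low cholesterol level while the other 4 lay above it (log2 fold change 0.82, standard error 0.17, adjusted p = 0.035, edgeR). Abcg8, which encodes the partner subunit and overlaps Abcg5 on the opposite strand, was at 94.9, 88.0, 101, 77.0 and 75.8 TPM and at 160, 116, 66.6, 183 and 134 TPM. It showed the same low mouse and was not called (log2 fold change 0.60, adjusted p = 0.29, edgeR). Rnf145, a sterol-responsive ubiquitin ligase and LXR target from the list of sterol sensing genes, was at 5.46, 7.12, 5.39, 6.35 and 5.28 TPM and at 8.87, 6.34, 6.88, 11.8 and 10.7 TPM (log2 fold change 0.61, adjusted p = 0.025, edgeR).

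The called gene that went the other way was Pltp, the phospholipid transfer protein of plasma, at 68.8, 52.6, 87.2, 32.2 and 68.4 TPM on low and 17.6, 15.7, 26.0, 27.5 and 29.6 TPM on high cholesterol. Its groups did not overlap although low cholesterol mouse 4 came close (log2 fold change -1.39, adjusted p = 0.0415, edgeR). Lpl, the lipoprotein lipase, and Apoe had log2 fold changes of 0.84 and 0.41 and adjusted p of 0.332 and 0.614. The transporters Abca1 and Abcg1, the receptors Nr1h3 and Nr1h2 (LXR-alpha and LXR-beta) and Mylip, Lpcat3, Smpdl3a and Arl4c had adjusted p of at least 0.746. Of the 16 genes of bile acid synthesis, 0 were called in either direction, and their median log2 fold change was -0.04. Cyp7a1, the rate-limiting enzyme of bile acid synthesis, was at 5.25, 36.8, 58.1, 66.1 and 71.4 TPM on low and 124, 48.9, 120, 116 and 85.8 TPM on high cholesterol. The groups overlapped, low cholesterol mouse 1 was far below its group, and the log2 fold change of 1.10 had a standard error of 0.54 (adjusted p = 0.625, edgeR). Cyp8b1, the 12-alpha-hydroxylase that shapes the bile acid pool, had a log2 fold change of -0.55 (adjusted p = 0.669), and the other members, Cyp27a1, Cyp7b1, Cyp2c70, Cyp39a1, Hsd3b7, Akr1d1, Akr1c6, Amacr, Acox2, Hsd17b4, Slc27a5, Slc27a2, Baat and Acot8, had adjusted p of at least 0.738.

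Genes of fatty acid synthesis mostly lay below zero without passing the test. Of 14 measured, Acss2 was called lower and 0 were called higher, 12 had a negative log2 fold change, and the median was -0.45, against 48.8% negative and a median of 0.01 over all genes tested. Acly, the ATP citrate lyase, was at 91.9, 102, 160, 69.2 and 124 TPM on low and 52.5, 36.8, 29.0, 81.7 and 54.4 TPM on high cholesterol (log2 fold change -1.12, adjusted p = 0.136, edgeR). Fasn, the fatty acid synthase, went from 72.7 ± 27.95 to 37.9 ± 20.1 TPM (log2 fold change -0.95, adjusted p = 0.323), and Acacb, the mitochondrial acetyl-CoA carboxylase, from 22.9 ± 9.32 to 9.42 ± 4.26 TPM (log2 fold change -1.31, adjusted p = 0.182). High cholesterol mouse 4 was the highest of its group for all 3 and overlapped the low cholesterol mice. All 6 genes of polyunsaturated fatty acid synthesis and Pnpla3 measured had negative values (median -0.79), of which Fads1 alone was called. Fads2, the delta-6 desaturase, Elovl5, an elongase, and Pnpla3, a lipid droplet protein, had log2 fold changes of -1.04, -0.73 and -1.52 and adjusted p of 0.131, 0.219 and 0.462.

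**Figure D4:**
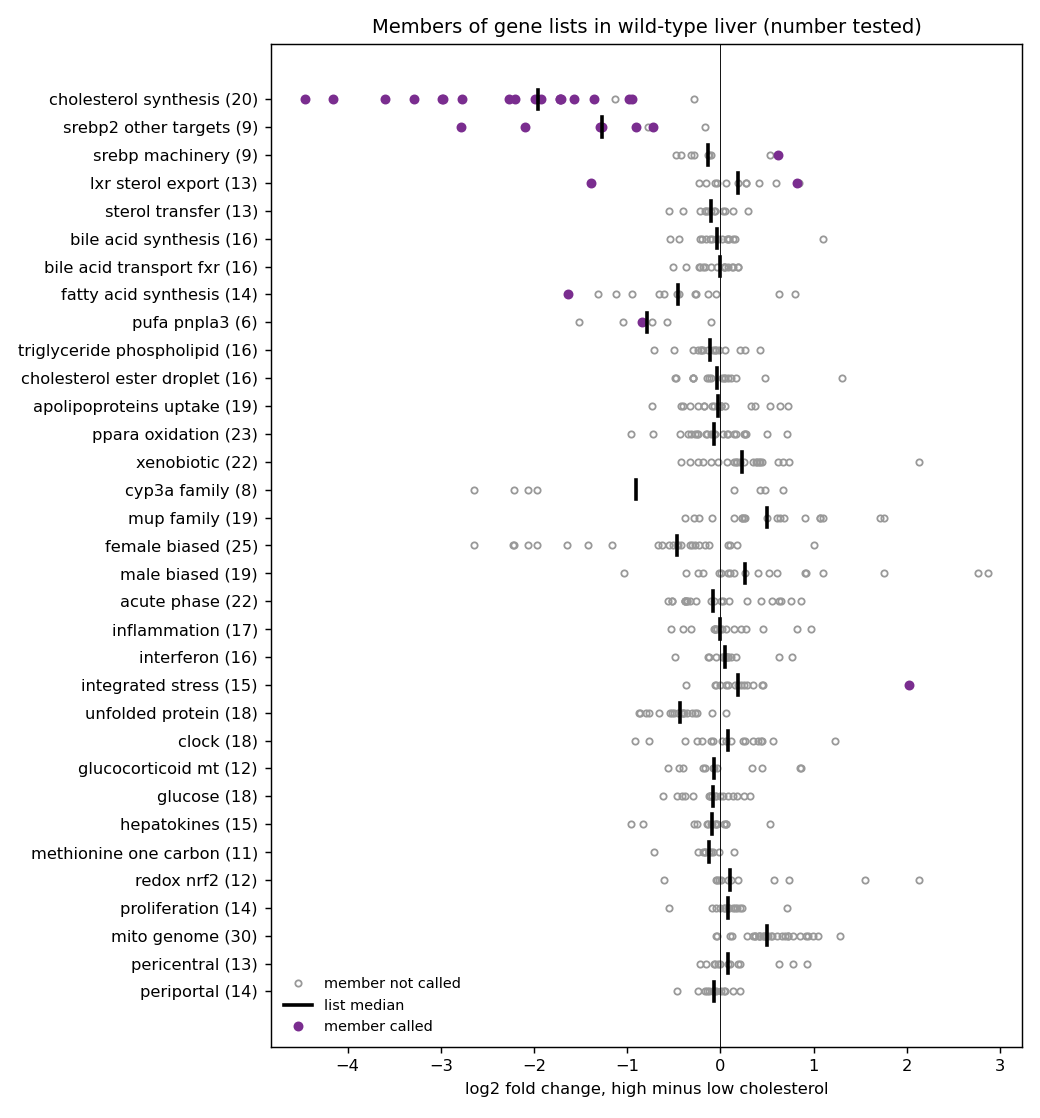
Log2 fold changes (high minus low cholesterol, wild type) of the measured members of 33 gene lists, with filled points for members called at an adjusted p below 0.05, open points for the others and a bar at the list median. Called members lie in the sterol lists, except for Acss2, Fads1 and Gdf15, and the medians of most other lists lie within 0.3 of zero.

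In the other lists of metabolism, stress, immunity and liver zonation, 0 genes were called in either direction apart from Gdf15, and some lists were uneven in sign. Of 18 endoplasmic reticulum chaperones and unfolded protein response genes, 17 were negative (median -0.43), among them Hspa5, the chaperone BiP, at 555, 437, 521, 396 and 222 TPM on low and 226, 243, 147, 308 and 318 TPM on high cholesterol (log2 fold change -0.77, adjusted p = 0.332, edgeR). Low cholesterol mouse 5 lay within the range of the high cholesterol group. Hyou1, another chaperone, had a log2 fold change of -0.86 (adjusted p = 0.518). Of 30 transcripts of the mitochondrial genome, 28 were positive (median 0.50), and mt-Nd1, a subunit of complex I, was at 9298 to 11171 TPM on low and 12258 to 20488 TPM on high cholesterol (log2 fold change 0.66, adjusted p = 0.332). Of 25 genes with female-biased liver expression, 21 were negative (median -0.46), with Cyp3a44 at 83.2 to 177 TPM and 8.66 to 64.4 TPM (log2 fold change -1.96, adjusted p = 0.411) and Cyp17a1 at a log2 fold change of -1.64 (adjusted p = 0.357). Cyp3a11, the main xenobiotic enzyme of its family, went the other way, at a log2 fold change of 0.67 (adjusted p = 0.261). Of 19 male-biased genes, 14 were positive (median 0.26). Neither list kept its sign in the knockout, with medians of 0.34 for the female-biased and -0.27 for the male-biased genes. There Cyp3a44 had a log2 fold change of 0.91 and Cyp17a1 of -0.85, and neither was called.

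Some single genes had groups that did not overlap without being called. Apoa4, an apolipoprotein, was at 339 ± 28.2 and 197 ± 28.7 TPM (log2 fold change -0.73, adjusted p = 0.291), Itih3, a plasma protease inhibitor of the acute phase, at 579 ± 74.6 and 386 ± 73.8 TPM (-0.56, adjusted p = 0.146), and Bhlhe41, a clock repressor, at 1.04 ± 0.489 and 2.37 ± 0.341 TPM (1.23, adjusted p = 0.358, all edgeR). Bst2, an interferon-induced membrane protein whose groups overlapped slightly, had a log2 fold change of 0.63 (adjusted p = 0.254). In these bulk samples fewer cells of a type and less RNA per cell cannot be told apart, and marker lists were compared for that reason. Of 12 Kupffer cell and macrophage markers, 0 were called and all 12 were negative (median -0.18), with summed levels of 508.5 to 885.7 TPM on low and 345.8 to 817.2 TPM on high cholesterol. In the knockout the median of this list was 0.06. No tested marker of hepatocytes, sinusoidal endothelium, stellate cells, cholangiocytes, lymphocytes, adipocytes, pancreas, kidney, gut, muscle or red cells was called, and the medians of the hepatocyte, endothelial and stellate lists were -0.17, -0.11 and 0.13. Some lists were hardly tested, since only 2 of 7 adipocyte, 2 of 10 pancreas and 3 of 10 kidney, gut and muscle markers had enough counts.

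The diet effect on the sterol genes was also present in the knockout mice, which share no library with the wild-type groups. Of the 51 genes lower in wild type, 51 had the same sign in the knockout and 37 were called lower there, against 0.293% of all genes tested. Of the 15 higher genes, 15 had the same sign and 4 were called higher (Adam11, Tpm2, 1700080G11Rik and Inmt), against 0.0333% of all genes. Adam11 had a log2 fold change of 3.01 in the knockout and 3.17 in wild type, and Sqle -4.60 and -4.46. The test of the difference between the genotypes called 0 of 15016 genes (smallest adjusted p 0.9999, edgeR). At an unadjusted p below 0.05 it counted 250 genes (1.66%), 4 of them among the 66 called genes. Chance alone gives about 751 genes at that threshold, more than were counted. The groups were small, and 0 calls do not show that the genotypes respond alike. Abcg5, at 0.82 in wild type and 0.53 in the knockout, and Gdf15, at 2.02 and 1.59, were called in wild type only, and their differences between genotypes were not past the threshold (unadjusted p = 0.265 and 0.474, edgeR). The same held for Mycn, at -2.05 and -0.88 (unadjusted p = 0.0404, adjusted p = 0.9999, edgeR), so no diet response was shown to be particular to wild type. Conversely Acly and Fasn, which were not called in wild type, were called lower in the knockout at log2 fold changes of -1.38 and -1.45. Their differences between genotypes were not past the threshold either (unadjusted p = 0.523 and 0.252, edgeR). Slc25a1, the citrate carrier, was also called lower in the knockout, at -0.72.

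**Figure D5:**
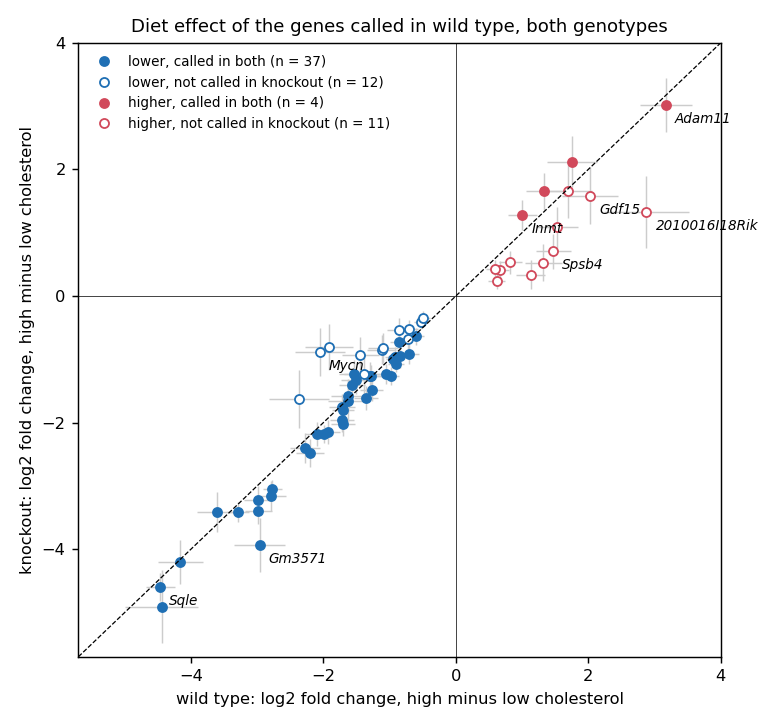
Log2 fold change on high against low cholesterol in knockout (vertical axis) and wild-type mice (horizontal axis) for the genes called in wild type, with standard errors, filled points where the gene was also called in the knockout and a dashed line where both are equal. All points lie in the quadrants of equal sign, and Sqle and Adam11 lie near the line; Hsd3b1 and Cyp21a1, which rest on 1 mouse, are left out.

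The tables of the mice carry numbers in 2 separate runs, with low cholesterol mice 1 to 3 and high cholesterol mice 4 and 5 in the first and the other 5 mice in the second, and what the runs stand for is not given. Diet was thus not balanced over the runs. With a term for the run in the fit, 47 genes were lower, 18 of the 20 enzymes among them, and 15 were higher, and Lbr, Hsd3b1, Pltp, 1700092C10Rik, Fads1, Cyp21a1 and Cyp4f15 lost the call (adjusted p = 0.0575 to 0.257, edgeR). The direction held in both runs for all 49 lower and all 14 higher genes that could be measured in each. These genes were called on the same mice, and for most the groups did not overlap. That outcome was therefore nearly fixed in advance and does not settle what the runs contribute. Within the first run Sqle had a log2 fold change of -4.81, Hmgcs1 of -2.35, Adam11 of 3.28 and Gdf15 of 1.28, and within the second -4.03, -2.06, 3.22 and 2.76. With each wild-type mouse left out in turn, 36 of the 51 lower genes stayed called in every fit, among them the 18 enzymes, Aldoc, Acss2, Asah1 and Mycn. Of the 15 higher genes 13 lost the call in at least 1 fit. For Rnf145, Abcg5, Gdf15, Inmt and Pltp the largest adjusted p with 1 mouse left out was 0.0855, 0.139, 0.144, 0.174 and 0.172 (edgeR), with log2 fold changes that kept their sign.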

How the data were processed

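Poly(A) RNA of 19 female mouse livers was sequenced, 1 library per mouse, of which 10 are compared here. The deposited tables hold raw whole-number counts, as the authors made them, for 49315 Ensembl genes, each with its position and length. The submitters' processing notes name STAR 2.5.2b and GRCm38, but the tool that counted reads, its strand setting and the annotation are not given in sources used here. The library kit (NEBNext Ultra) does not mark strand.

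Genes were matched to GENCODE M21 symbols by identifier (48970 of them). Counts were fitted with edgeR 4.0.16 in R 4.3.3, with TMM library sizes, filterByExpr by group (minimum count 10), 1 coefficient per group over all 19 libraries and the quasi-likelihood F test, with Benjamini-Hochberg adjustment over all 15016 genes tested and a threshold of 0.05. The common biological coefficient of variation was 0.255. TPM was computed from counts and lengths, and levels are compared between genes on that scale alone. P-values measure the spread between these mice. On simulated counts for this contrast over 15016 genes 60% of the 2-fold and 95% of the 4-fold changes were found. Transcripts were compared with BLAST+ 2.17.0, and promoters came from RefSeq (GRCm38.p6), which had no entry here for 13 lower and 3 higher genes. Alternatives used DESeq2 1.42.0, limma 3.58.1 and voom. Python 3.11.15, pandas 2.3.3, numpy 2.4.6 and matplotlib 3.10.9 were also used.

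The comparison and the 45 gene lists were chosen with earlier results of these data known. Named genes were the 15 lower and 15 higher called genes of smallest p, the 5 called genes of largest fold change each way, all members of the lists of cholesterol synthesis, other SREBP2 targets, LXR and sterol export and bile acid synthesis, up to 5 members of smallest p of each other list, the Aster genes and cell markers. Not all of these are printed, and a few genes are not reported here, although counts over lists and over all genes include them. Other called genes, Slc25a1, Acaca, Acat3, and the members singled out because their groups did not overlap were named after their values were seen. Replicate numbers did not pair the mice (correlations of same-numbered residuals -0.236 to -0.0303 over 5 pairs).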

Additional observations from a re-analysis of the deposited data

Results flagged for a closer look

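The search covered 91 of the genes named in the text, or 182 groups of 5 mice. It sought a mouse set apart from its group by more than 0.71 of the group's range in TPM. Other named genes were not searched. The search marked 13 groups, where chance alone marks about 9.1, and no explanation was tested. In low cholesterol mouse 2, 6 of the values searched stood apart. Of these Hsd3b1 was at 198 TPM (the other 4 mice 0.295 to 0.80), Cyp21a1 at 191 TPM (0.245 to 0.479), Star at 84.0 TPM (0.469 to 1.14) and Cfd at 108 TPM (0.222 to 0.892), while Lpl was at 7.504 TPM (2.60 to 3.58) and Gm49759 at 0.418 TPM (0.246 to 0.291). High cholesterol mouse 4 was high for Srebf1 at 230 TPM (the other 4 mice 102 to 134) and Fasn at 72.8 TPM (22.2 to 35.3). Low cholesterol mouse 5 held 1049 TPM of Inmt (562 to 678), and low cholesterol mouse 4 held 387 TPM of Apoa4 (312 to 332) and 1.88 TPM of Bhlhe41 (0.607 to 0.958). High cholesterol mouse 5 held 0.662 TPM of Fmn1 (0.328 to 0.418), and high cholesterol mouse 1 held 0.211 TPM of Cyp21a1, which was at 0 in the other 4. Outside the search, low cholesterol mouse 2 held 3.47 TPM of Gramd1b (0.530 to 0.706) and 9.46 TPM of Adipoq (0 to 0.217). There too, high cholesterol mouse 1 held 84.8 TPM of Cyp7b1 (44.0 to 47.2).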

How the results depend on the processing

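The 18 lower enzymes of cholesterol synthesis stayed called with any wild-type mouse left out, and no called gene changed sign under any alternative. The number of lower genes was 51 and ranged from 37 to 55 with a wild-type mouse left out, and that of higher genes was 15 and ranged from 2 to 16, lowest without low cholesterol mouse 1. A term for the run of table numbers gave 47 and 15. DESeq2 counted 83 lower and 27 higher, a minimum log2 fold change of 1 left 16 and 1 (and 16 lower in both genotypes, against 37), and the second run of table numbers alone gave 9 and 0. Higher genes numbered 9 with no filter on low counts and 7 with the 10 wild-type libraries alone. With the replicate number as a block the higher genes numbered 6 over 19 libraries and 5 over the 10 wild-type libraries (lower: 41 and 35), but the numbers did not pair the mice, and 0 of 5 low cholesterol mice correlated best with their own number. Without knockout high cholesterol mouse 5, chosen after seeing the data, the counts were 67 lower and 20 higher. Some named genes given as not called depend on the tool. Among those checked, DESeq2 called 4 of 26, and voom and the fit without that knockout mouse each called 2 of 28. Aacs, not called, had a log2 fold change of -0.467 to 0.0728 with a mouse left out, reversed without high cholesterol mouse 3, and of 0.326 in the first run of table numbers alone. The interaction called 0 genes in every alternative run for it. Other library scalings moved the median of all genes by less than 0.1 on the log2 scale. The cause of these differences was not tested. The 5 mice of a group limit what smaller changes could be called.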
